A study of Mus musculus with 6 samples.

Results

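The 10 CXC chemokine genes Cxcl1, Cxcl2, Cxcl3, Cxcl5, Cxcl9, Cxcl10, Cxcl11, Cxcl12, Cxcl14 and Cxcl16 were picked by gene symbol from a table of 49592 genes, and all 10 had a row in it. Transcripts were measured by sequencing poly(A)-enriched RNA from C2C12, a single mouse myoblast line whose cells fuse into multinucleated myotubes when serum is lowered. All 6 cultures were grown in 10% FBS and differentiated for 3 days in 2% HS. In the TWEAK group the myotubes then were exposed for 12 h to 10 ng/ml of TWEAK, which belongs to the TNF family of cytokines, and in the untreated group they were not. Each group held 3 libraries, one from each of trials 1, 2 and 3. What a trial shares is not in the labels, and the p-values therefore reflect only how much these libraries vary. The title of the series names Cxcl10 together with alternative NF-kB signalling and myoblast fusion, and the comparison asks how TWEAK acts on gene expression in these cells.

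Chemokines are small secreted proteins that bind receptors with 7 membrane spans coupled to G proteins and steer the movement of cells along a gradient. In the CXC class a single amino acid separates the first pair of conserved cysteines. Members that carry the residues Glu-Leu-Arg before that motif (CXCL1, CXCL2, CXCL3 and CXCL5) act on the receptor CXCR2 and draw neutrophils. CXCL9, CXCL10 and CXCL11 lack these residues, are induced by interferon-gamma and NF-kB, and act on CXCR3 of T cells and NK cells. CXCL12 is made constitutively by stromal cells and acts on CXCR4 and the scavenging receptor ACKR3, an axis known in muscle for the migration of progenitor cells. CXCL16 is made as a transmembrane protein that can be shed, and its receptor is CXCR6.

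The libraries held 29981206 to 40921173 recovered reads each. All 6 skeletal muscle markers checked (Des, Myog, Ckm, Acta1, Myh3 and Mymk) were abundant, at summed levels of 6580 to 6970 FPKM with TWEAK and 6896 to 7982 FPKM without. Of these Myh3, the embryonic myosin heavy chain gene, fell from 1028 to 615 FPKM (limma adjusted p = 0.00615), and the other 5 did not pass. FPKM relates the fragments of a gene to its length and to the depth of the library. Of the leukocyte markers, Adgre1, Cd3e and S100a9 had 0 reads and Ptprc had 2 with TWEAK and 1 without. The summed level of the leukocyte markers was 1.36 to 1.68 FPKM with TWEAK and 1.46 to 1.58 FPKM without, most of it from Cd68. Of 4 endothelial markers the summed level was at most 0.0796 FPKM with TWEAK and 0.104 FPKM without. The 4 fibroblast and progenitor markers (Pdgfra, Dcn, Lum and Cd34) summed to 39.2 to 76.3 FPKM with TWEAK and 30.9 to 57.2 FPKM without, and of these Cd34 rose (limma adjusted p = 0.0107). The part of such cells, or of the change in Myh3, in the differences below was not tested. In bulk samples fewer cells of a type and less RNA per cell cannot be told apart.

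Untreated myotubes expressed one CXC chemokine gene well above the rest. Cxcl12 was at 29.8 ± 6.19 FPKM (mean ± SD, n = 3), Cxcl5 at 1.88 ± 0.905, Cxcl1 at 1.30 ± 0.456, Cxcl14 at 0.509 ± 0.258, Cxcl16 at 0.397 ± 0.00776, Cxcl9 at 0.0273 ± 0.0171 and Cxcl10 at 0.0173 ± 0.00862 FPKM. The ranges of Cxcl5 and Cxcl1 overlapped, as did those of Cxcl14 and Cxcl16 and those of Cxcl9 and Cxcl10. Cxcl2, Cxcl3 and Cxcl11 had no read in untreated cells. With TWEAK, Cxcl12 was again first, at 32.3 ± 5.94 FPKM. It was followed by Cxcl1, Cxcl16 and Cxcl5, whose ranges overlapped in turn, at 4.68 ± 1.06, 4.41 ± 1.23 and 3.57 ± 2.01 FPKM, and then by Cxcl10 at 1.05 ± 0.236 FPKM. Cxcl12 supplied 86.2% to 90.2% of the summed FPKM of the 10 genes in the untreated libraries and 66.5% to 72.9% in the TWEAK libraries. The other 9 genes summed to 4.13 ± 1.52 FPKM without TWEAK and 14.3 ± 3.59 FPKM with it. These levels are per length of the gene models, 1827 to 5627 bases as recovered from the table.

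**Figure D1:**
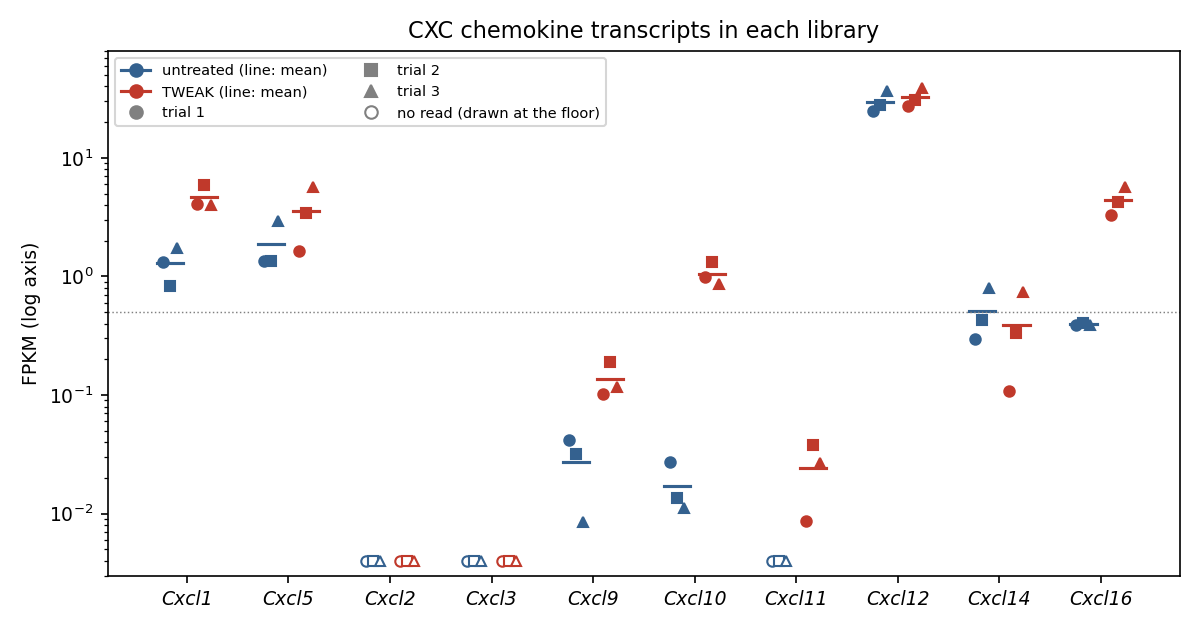
FPKM (log axis) of the 10 CXC chemokine genes in each library, with a symbol for each trial, a line at each group mean and open symbols for libraries with no read; the dotted line is the mean FPKM of 0.5 required for testing. Cxcl12 lies between 24.6 and 39.0 FPKM in both groups, while all TWEAK libraries lie above all untreated ones for Cxcl1, Cxcl9, Cxcl10, Cxcl11 and Cxcl16.

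A test was run on genes with a mean of at least 0.5 FPKM over the 6 libraries, which 5 of the 10 passed: Cxcl1, Cxcl5, Cxcl10, Cxcl12 and Cxcl16. Cxcl10 and Cxcl16 passed only through their TWEAK libraries, so their number is no evidence about the group of genes. Of the 5, limma called Cxcl1, Cxcl10 and Cxcl16 higher at an adjusted p of 0.05 and called 0 lower (0 also at an unadjusted p of 0.05 and with limma-voom). Among all 12770 genes tested it called 8.98% higher and 6.10% lower, 15.1% in all. With trials entered as a replicate block Cxcl5 was also called, beside 15.4% of all tested genes called higher, 12.5% lower and 27.9% in all. In limma-voom on recovered reads Cxcl1, Cxcl10 and Cxcl16 were called, beside 11.4% of all tested genes called higher, 5.83% lower and 17.2% in all. The TWEAK libraries all lay above the untreated ones in 20.0% of tested genes and all below in 15.9%. By size of the rise, Cxcl16, Cxcl1 and Cxcl10 ranked 17, 55 and 97 among the 12770. Log2 fold changes are given on the log2(FPKM + 1) scale unless another is named, and changes of very low genes are understated there. Folds are ratios of mean FPKM.

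Among the neutrophil-attracting ligands, Cxcl1 rose 3.60-fold. Cxcl1 (ENSMUSG00000029380.12, GRCm39 chromosome 5, 91039100 to 91040974) stood at 4.11, 5.90 and 4.02 FPKM in TWEAK trials 1, 2 and 3 and at 1.32, 0.829 and 1.74 FPKM in the untreated libraries of the same trials. The groups did not overlap, and trial 2 held both the highest TWEAK library and the lowest untreated one. The log2 fold change was 1.31 (SE 0.16, limma adjusted p = 0.00132), and within trials the level was 3.10, 7.12 and 2.31 times that of the untreated library. No library decided the call. Without each library in turn the log2 fold change was 1.15 to 1.45 and the limma adjusted p at most 0.00804.

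Cxcl5 differed between trials in both groups. It (ENSMUSG00000029371.8, chromosome 5, 90907237 to 90909483) stood at 1.64, 3.41 and 5.66 FPKM with TWEAK and at 1.36, 1.36 and 2.93 FPKM without. Trial 3 was highest in both groups, and the groups overlapped because untreated trial 3 exceeded TWEAK trial 1. Within trials the TWEAK library was higher in 3 of 3, by 1.20, 2.52 and 1.93 times. The log2 fold change was 0.61 (SE 0.31, limma adjusted p = 0.219), with a 95% interval from -0.09 to 1.31. Under the replicate block the same 0.61 had an SE of 0.12 (limma adjusted p = 0.00183). Without TWEAK replicate 1 and with no block it was 0.95 (limma adjusted p = 0.0278).

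Cxcl2 and Cxcl3, which lie in the same stretch of 147 kb as Cxcl1 and Cxcl5, had 0 reads in all 6 libraries. A count of 0 allows at most 3 of the 202407191 reads. Cxcl1, Cxcl2 and Cxcl3 are close paralogs, and how reads that match several genes were counted is not given in the sources used here, so the split between them is uncertain. Bases just before the transcription start of these genes are shown because all 3 carry the same run while the reads assigned to them differed. The sequences are from RefSeq on build GRCm38.p6, plus strand, 120 bases up to the start, at chr5:90891125-90891244, chr5:90903779-90903898 and chr5:90785981-90786100, and capitals mark matches to the NF-kB consensus.
Cxcl1: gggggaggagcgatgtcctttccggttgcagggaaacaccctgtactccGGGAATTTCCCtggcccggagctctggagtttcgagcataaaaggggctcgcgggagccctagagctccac
Cxcl2: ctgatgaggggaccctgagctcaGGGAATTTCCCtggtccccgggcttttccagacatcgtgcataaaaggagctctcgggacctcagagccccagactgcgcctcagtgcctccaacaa
Cxcl3: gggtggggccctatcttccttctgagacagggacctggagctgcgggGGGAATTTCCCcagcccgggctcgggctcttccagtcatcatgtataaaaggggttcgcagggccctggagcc
Each run of capitals is GGGAATTTCCC, in which matches on the 2 strands overlap by all but an end base. It begins 71, 97 and 73 bases before the start of Cxcl1, Cxcl2 and Cxcl3. On either strand of the 250 bases before the start, 7.25% of the 32851 RefSeq promoters of the table hold a match. A match describes letters in this window and shows neither binding nor use.

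Of the CXCR3 ligands, Cxcl10 rose from almost no reads to a low level. Cxcl10 (ENSMUSG00000034855.14, chromosome 5, 92494497 to 92496748) had 67, 102 and 57 reads in TWEAK trials 1, 2 and 3 and 2, 1 and 1 reads in the untreated libraries, or 0.988, 1.32 and 0.858 FPKM against 0.0271, 0.0136 and 0.0111 FPKM. Every untreated library thus held a read or a pair of reads, and the lowest TWEAK library lay far above them. The ratio of pooled reads, each group divided by its summed size factors, was 63.3 (95% exact binomial interval 24.4 to 235, counting error only), and within trials the ratio of FPKM was 36.4, 96.4 and 77.6. The log2 fold change was 1.01 on the log2(FPKM + 1) scale (SE 0.10, limma adjusted p = 0.00042) and 5.57 on recovered reads (SE 0.43, limma-voom adjusted p = 4.98e-05). Without each library in turn, the ratio of pooled reads was 52.3 to 87.3.

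The other CXCR3 ligands were lower still and lay below the level required for testing. Cxcl9 (ENSMUSG00000029417.10, chromosome 5, 92469206 to 92475938) had 9, 19 and 10 reads with TWEAK and 4, 3 and 1 without. It was detected in 6 of 6 libraries and the groups did not overlap. Its ratio of pooled reads was 5.33 (95% exact binomial interval 2.45 to 13.2). Cxcl11 (ENSMUSG00000060183.7, chromosome 5, 92507403 to 92513344), which the table classes as a polymorphic pseudogene, had 1, 5 and 3 reads with TWEAK and 0, 0 and 0 without. It was detected in 3 of 6 libraries, all of them treated. Against a floor of 3 reads over the untreated group, its ratio of pooled reads was 3.36. That ratio takes the 9 reads with TWEAK as exact, so it is not a limit that covers their counting error. Without untreated replicate 3 the ratio against the floor was 2.08. In a fit of all 26302 genes with a read, chosen after seeing the data, Cxcl9 and Cxcl11 had limma-voom adjusted p values of 0.0236 and 0.0199, beside 5.21% of those genes called higher, 2.88% lower and 8.09% in all. In the authors' deposited table, which rests on more libraries, the unadjusted p is 0.00195 for Cxcl9 and 0.0744 for Cxcl11, with no adjusted p.

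The 3 CXCR3 ligand genes lie within 44.1 kb, and Cxcl10 and Cxcl11 lie inside the span of Art3, an ADP-ribosyltransferase family gene (chromosome 5, 92479686 to 92562487). GENCODE M21 places Art3 on the plus strand and Cxcl10 on the minus strand. Whether counting used strand is not given in the sources used here, so reads of overlapping genes may not be told apart. Gm2673, which overlaps Cxcl11, had 0 reads. Art3 stood at 0.870, 1.09 and 0.888 FPKM with TWEAK and at 1.17, 2.06 and 1.24 FPKM without. It was thus lower in every treated library, the opposite of Cxcl10, although it did not pass (log2 fold change -0.34, limma adjusted p = 0.129, and 0.0183 under the replicate block). Of the 9 tested neighbours within 250 kb of these ligands, limma called 0 (4 at an unadjusted p of 0.05), beside 15.1% of all tested genes. With limma-voom 1 was called, beside 17.2%, and under the block 3 were, beside 27.9%.

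The promoter of Cxcl10 is shown because the title of the series ties this gene to NF-kB. It is the minus strand of chr5:92348890-92349139 on GRCm38.p6 (RefSeq), the 250 bases up to the transcription start, and capitals mark the interferon-response motif (GAAA, any 2 bases, GAAA) and matches to the NF-kB consensus.
Cxcl10: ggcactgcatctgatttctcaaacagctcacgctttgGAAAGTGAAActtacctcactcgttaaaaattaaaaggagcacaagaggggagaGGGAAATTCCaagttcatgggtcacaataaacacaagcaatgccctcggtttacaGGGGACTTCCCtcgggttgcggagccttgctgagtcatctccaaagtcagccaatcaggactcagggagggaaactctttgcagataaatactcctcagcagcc
The first run of capitals, GAAAGTGAAA, begins 213 bases before the start. The NF-kB matches are GGGAAATTCC, beginning 159 bases before the start, and GGGGACTTCCC, beginning 104 bases before it, where matches again overlap. The interferon-response motif occurs on either strand in 2.98% of the 32851 promoters. Of the 7 members with a promoter in the table (Cxcl5, Cxcl11 and Cxcl16 have none), 4 held an NF-kB match (Cxcl1, Cxcl2, Cxcl3 and Cxcl10) and 2 held the interferon-response motif (Cxcl10 and Cxcl14). Both Cxcl2 and Cxcl3, at 0 reads, are among those with an NF-kB match. The letters TATAAA, searched on the sense strand, begin 30 bases before the start of Cxcl3 and 195 bases before that of Cxcl9, and are in 7.59% of all promoters.

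Cxcl16 had the largest rise of the 5 tested members on the log2(FPKM + 1) scale. It (ENSMUSG00000018920.12, chromosome 11, 70344809 to 70350810) stood at 3.28, 4.22 and 5.72 FPKM with TWEAK and at 0.392, 0.406 and 0.393 FPKM without. The untreated libraries were nearly equal, and the lowest treated library was far above them. The mean was 11.1-fold higher (log2 fold change 1.93, SE 0.14, limma adjusted p = 7.91e-05), and within trials the ratio was 8.36, 10.4 and 14.6. On recovered reads the order of Cxcl16 and Cxcl10 turned, with log2 fold changes of 3.45 and 5.57.

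Of 22 tested neighbours of Cxcl16 within 250 kb, Med11, Arrb2 and Bcl6b were called higher and 0 lower, beside 8.98% of all tested genes called higher, and under the replicate block 6 were called, beside 27.9%. Zmynd15, which overlaps the start of Cxcl16 on the other strand (70350259 to 70357028), had 31, 40 and 47 reads with TWEAK and 7, 6 and 10 without, a ratio of pooled reads of 5.75 (95% exact binomial interval 3.66 to 9.43). It was below the level required for testing, and in the fit of all genes with a read its limma-voom adjusted p was 0.001. Since strand use is not given, reads of Zmynd15 and Cxcl16 may not be told apart where the genes overlap. Med11, a subunit of the Mediator complex whose gene ends beside the end of Cxcl16, stood at 16.7 ± 1.62 FPKM against 11.6 ± 0.512 (n = 3, limma adjusted p = 0.00526). Arrb2, the gene of beta-arrestin 2, which turns off and internalises chemokine receptors, stood at 9.47 ± 0.727 FPKM against 7.11 ± 0.633 (n = 3, limma adjusted p = 0.0201). Bcl6b, a transcriptional repressor gene, stood at 0.914 FPKM against 0.382 (limma adjusted p = 0.0158) and passed the minimum for testing only through its TWEAK libraries. Arrb2 lost its call without TWEAK replicate 2 (limma adjusted p = 0.0937), untreated replicate 1 (0.0575) or untreated replicate 3 (0.0641), and Bcl6b without TWEAK replicate 2 (0.0633) or untreated replicate 1 (0.0573). Around Cxcl1 and Cxcl5, 1 of 4 tested neighbours was called, beside 15.1% of all tested genes. It was the long noncoding RNA gene Gm19610 (2.13 FPKM against 0.923, limma adjusted p = 0.0136, and 0.0547 without TWEAK replicate 2). With no expression minimum Arrb2, Bcl6b and Gm19610 did not pass (limma adjusted p of 0.0733, 0.0531 and 0.0901).

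**Figure D2:**
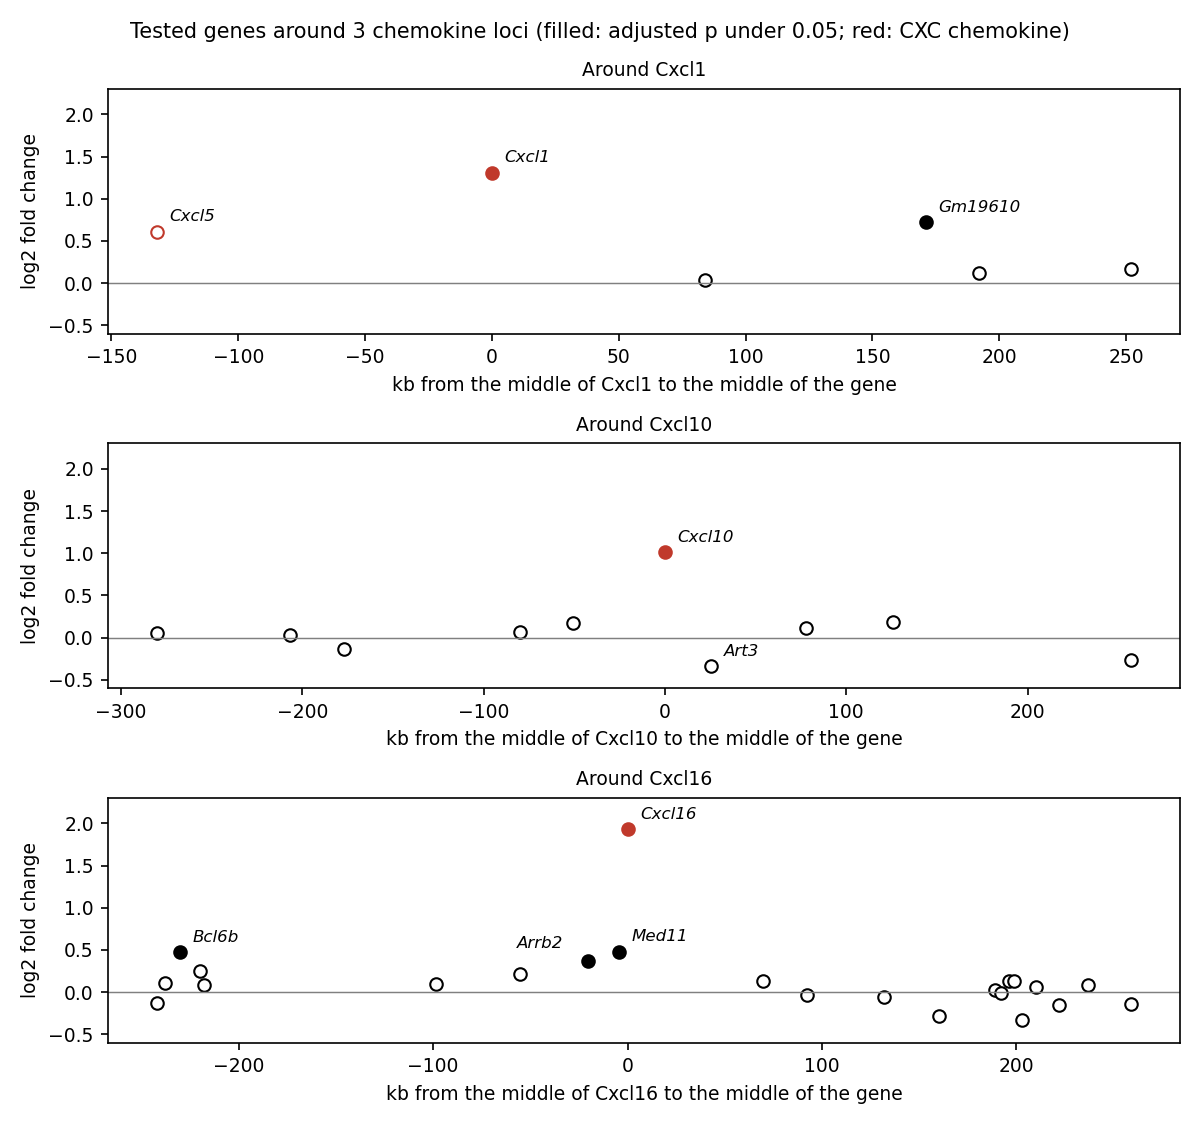
Log2 fold change (TWEAK minus untreated, log2(FPKM + 1) scale) of tested genes by distance in kb from the middle of Cxcl1, Cxcl10 or Cxcl16; chemokine genes are red and filled points passed an adjusted p of 0.05. In limma on this scale without the replicate block, 15.1% of all tested genes were called. Around Cxcl10, 0 of 9 tested neighbours were called, and around Cxcl16 Med11, Arrb2 and Bcl6b of 22 were.

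Cxcl12, the most abundant member, did not pass. It (ENSMUSG00000061353.12, chromosome 6, 117145496 to 117158328) stood at 27.5, 30.5 and 39.0 FPKM with TWEAK and at 24.6, 28.1 and 36.6 FPKM without. Trial 3 was highest in both groups, and the spread between trials exceeded the difference between groups. The log2 fold change was 0.12 (SE 0.15, limma adjusted p = 0.65), with a 95% interval from -0.23 to 0.47. Within trials the TWEAK library was higher in 3 of 3, by 1.12, 1.09 and 1.06 times, and under the replicate block the interval was -0.01 to 0.25 (limma adjusted p = 0.16). Without TWEAK replicate 3 the log2 fold change was -0.02.

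Cxcl14, a chemokine of epithelia whose receptor is not settled, lay below the level required for testing. It (ENSMUSG00000021508.12, chromosome 13, 56436456 to 56444364) had 6, 21 and 40 reads with TWEAK and 18, 26 and 59 without. As in Cxcl5 and Cxcl12, trial 3 was highest in both groups. The ratio of pooled reads was 0.729 (95% exact binomial interval 0.528 to 1.00), and within trials the ratio of FPKM was 0.363, 0.763 and 0.923. Without untreated replicate 3 the ratio of pooled reads was 1.06, and without TWEAK replicate 3 it was 0.428. The authors' deposited table gives Cxcl14 an adjusted p of 0.668.

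**Figure D3:**
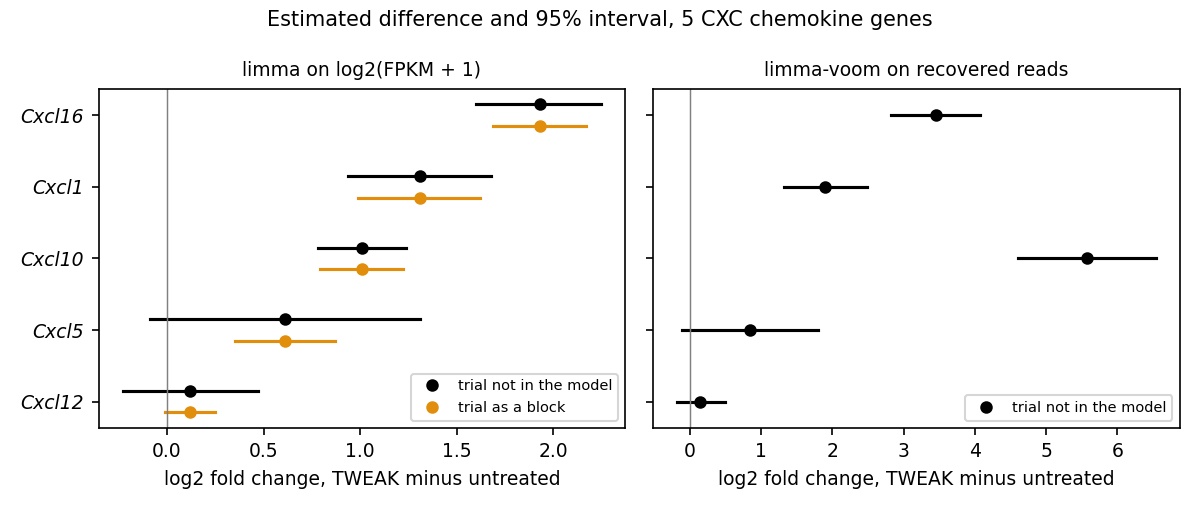
Log2 fold change (TWEAK minus untreated) with its 95% interval for the 5 tested members, from limma on log2(FPKM + 1) with and without the trial as a block (left) and from limma-voom on recovered reads (right). The interval of Cxcl5 includes 0 without the block (-0.09 to 1.31) and not with it (0.35 to 0.87), and Cxcl10 goes from 1.01 on the left to 5.57 on the right.

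Transcripts of the receptors for most of these ligands were absent or scarce in the same cells. Cxcr1, Cxcr2 and Cxcr5 had 0 reads in all 6 libraries, Cxcr3 had 1 read in all (untreated trial 1), and Ackr1, a receptor that binds many chemokines without G protein signalling, had 2. Cxcr6, the receptor of CXCL16, had 23, 23 and 36 reads with TWEAK and 13, 29 and 20 without, with overlapping groups. Its ratio of pooled reads was 1.48 (95% exact binomial interval 1.05 to 2.10, counting error only). In the fit of all genes with a read, Cxcr6 did not pass (limma-voom adjusted p = 0.4). Cxcr4, the signalling receptor of CXCL12, stood at 24.8, 21.4 and 26.3 FPKM with TWEAK and at 32.3, 33.0 and 33.9 FPKM without. The groups did not overlap, and Cxcr4 fell 1.37-fold (log2 fold change -0.44, SE 0.08, limma adjusted p = 0.0077). Without each library in turn its limma adjusted p was at most 0.0341. Ackr3 stood at 4.79, 4.42 and 5.51 FPKM with TWEAK and at 6.32, 5.97 and 5.64 FPKM without. Its groups did not overlap either, yet it did not pass (limma adjusted p = 0.0974, log2 fold change -0.24, SE 0.09). Under the replicate block (limma adjusted p = 0.039) or without TWEAK replicate 3 (0.0387) it was called lower. The ligand Cxcl12 and its receptor Cxcr4 thus had different outcomes of the same test, and the difference between them was not itself tested.

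**Figure D4:**
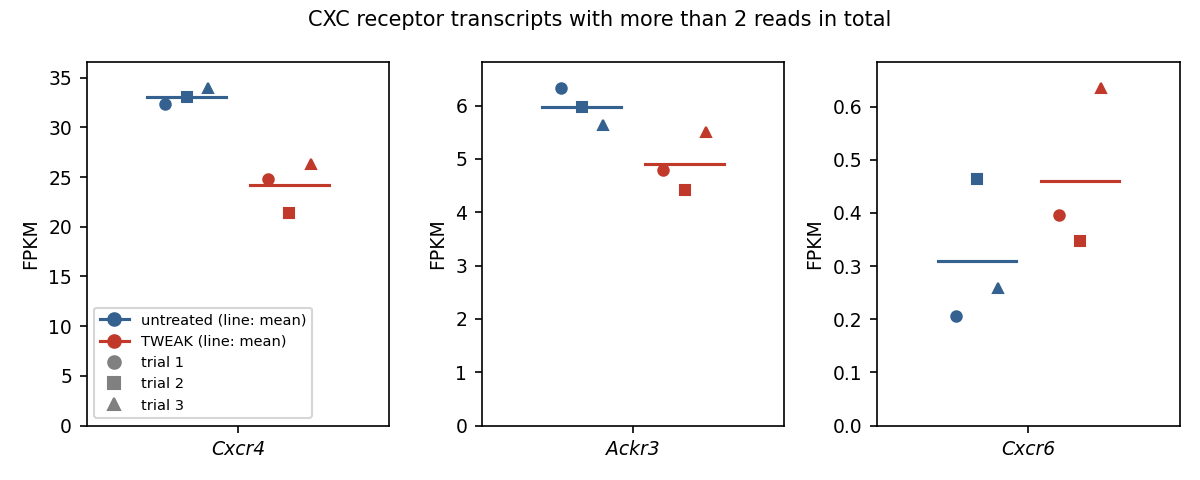
FPKM in each library of the 3 CXC receptor genes with more than 2 reads in total, with a symbol for each trial and a line at each group mean. For Cxcr4 the TWEAK libraries lie between 21.4 and 26.3 FPKM, below the untreated libraries at 32.3 to 33.9, while the groups overlap for Cxcr6.

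Of 5 further CXC ligand genes, Cxcl13 was the one past the level required for testing. This B cell chemokine gene stood at 0.589 ± 0.211 FPKM with TWEAK and 0.927 ± 0.169 without (n = 3, log2 fold change -0.28, limma adjusted p = 0.142, and 0.0415 under the block). Cxcl15 and Cxcl17 had 4 and 2 reads in all, and the platelet chemokine genes Pf4 and Ppbp, which sit in the cluster of Cxcl1, had 4 and 19.

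Genes known to act on CXC chemokine transcription rose or did not pass. Of 25 tested regulators, 13 rose and 0 fell (0 also with limma-voom and at an unadjusted p of 0.05). Their median log2 fold change was 0.33 against 0.01 over all genes tested, of which 8.98% were called higher and 6.10% lower. Smallest in adjusted p were the inhibitor genes Nfkbie and Nfkbia, the alternative-pathway gene Nfkb2 and the interferon regulatory factor gene Irf1, which rose 11.1-fold, 3.59-fold, 3.52-fold and 2.22-fold (limma adjusted p from 1.05e-05 to 8.75e-05). The interferon-gamma receptor genes Ifngr1 and Ifngr2, chosen after their values were seen, rose 2.44-fold and 1.83-fold. Ifng, the gene of interferon-gamma itself, had 5 reads with TWEAK and 8 without, and Ifnb1 had 0 reads. Under the replicate block 14 of the 25 regulators rose and 0 fell, beside 15.4% of all tested genes called higher and 12.5% lower. Of 9 tested regulators of transcript decay 2 rose and 0 fell (2 at an unadjusted p of 0.05), with a median of 0.05. Under the replicate block 3 of them rose and 1 fell, beside the same shares of all tested genes. Zc3h12a, which encodes the RNase regnase-1, rose 1.89-fold (limma adjusted p = 0.000577), and Hnrnpd, the gene of the AU-rich element binding protein AUF1, rose from 18.7 to 22.9 FPKM (limma adjusted p = 0.0244). Hnrnpd missed the threshold when TWEAK replicate 2 (0.108), TWEAK replicate 3 (0.0512) or an untreated library (0.0544 to 0.0899) was left out, and with no expression minimum (0.0554).

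The tested genes that process or anchor chemokines mostly did not pass. Of 15 tested, 1 rose and 1 fell (median 0.06), beside 8.98% of all tested genes called higher and 6.10% lower. Under the replicate block 2 rose and 2 fell, beside 15.4% of all tested genes called higher and 12.5% lower. The block added the syndecan genes Sdc4 and Sdc2 (limma adjusted p of 0.00286 and 0.00555), named after their values were seen. The metalloproteinase inhibitor gene Timp1 rose 1.62-fold (limma adjusted p = 0.0184) and Timp3 fell 2.33-fold (limma adjusted p = 0.000809). Timp1 missed the threshold without TWEAK replicate 2 (0.0563), untreated replicate 1 (0.064) or untreated replicate 2 (0.0523), and with no expression minimum (0.106). The sheddases of CXCL16, Adam10 and Adam17, were at 27.9 and 23.3 FPKM with TWEAK and at 26.7 and 22.1 without (limma adjusted p = 0.539 and 0.443). Dpp4, whose protease inactivates CXCL10 by trimming its end, had 0 reads. Mmp9 and Mmp8 of this list lay below the level required for testing and were named after their values were seen. Mmp9 had 42, 75 and 75 reads with TWEAK and 1, 1 and 9 without, and Mmp8 had 10 against 0. In the fit of all genes with a read, their limma-voom adjusted p values were 0.000339 and 0.00777. Of 13 tested genes of receptor signalling 2 rose and 0 fell (0 at an unadjusted p of 0.05), with a median of 0.05. The shares of all tested genes were again 8.98% higher and 6.10% lower. The risen genes were Arrb2 and Rgs16, a regulator of G protein signalling. Rgs16 stood at 5.52 ± 1.61 FPKM against 2.98 ± 0.714 (n = 3, limma adjusted p = 0.0412). Rgs16 missed the threshold without TWEAK replicate 1 (0.0874) or 2 (0.137), and without untreated replicate 2 (0.0962) or 3 (0.124). It also missed with upper-quartile scaling (0.0513), and with a minimum of 0.1 FPKM (0.0579) or none (0.172). Elmo1 of the same list, below the level required for testing, was named after its values were seen. It had 54, 40 and 32 reads with TWEAK and 72, 92 and 170 without. In the fit of all genes with a read its limma-voom adjusted p was 0.0255.

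The tested genes whose log2(FPKM + 1) followed that of Cxcl10 most closely over the 6 libraries were Plxnd1, Susd2, Gm13398, D130020L05Rik and Icam1, with Pearson correlations of 0.9997, 0.9981, 0.998, 0.998 and 0.9979. These values describe 6 libraries that fall into 2 groups, so the difference between the groups makes up most of each correlation. The semaphorin receptor gene Plxnd1 was at 26.8 ± 2.98 FPKM with TWEAK and 13.2 ± 0.186 without, Susd2 at 1.25 ± 0.360 and 0.0444 ± 0.00845, and the leukocyte adhesion gene Icam1 at 4.41 ± 2.01 and 0.00722 ± 0.00635 FPKM (n = 3 per group).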

How the data were processed

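The submitters' processing notes name build GRCm39 and, with no order, the authors' tools DESeq2 1.22.2, HTSeq 0.6.1p2, STAR 2.6.0c and Trim Galore 0.5.0. Their settings, the annotation release and strand use were not given in the sources used here. Per the file headers and the table's name, the authors deposited one FPKM value per gene and library. The deposited table also holds the authors' comparison: a mean normalized count (a signal), log2 fold change with its standard error, test score, p-value and adjusted p-value. Its mean is above 0 for 2337 genes at 0 in all 6 libraries, so that fit held other libraries, not analysed here.

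An FPKM equals reads, a whole number, times a library factor over a gene length. All 126386 values above 0 gave whole reads (relative tolerance 1e-06). For 297 of 12770 tested genes a common factor was chosen by the deposited mean, which is an assumption, and none of the 10 chemokine genes needed one. GENCODE M21 exon lengths set the overall scale.

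The main test was limma-trend 3.58.1 (R 4.3.3) on log2(FPKM + 1) with group as the only term, over genes whose mean reached 0.5 FPKM. P-values were two-sided and adjusted by Benjamini-Hochberg over all 12770 genes. Ratios of pooled reads have 95% exact binomial intervals (scipy 1.17.1). These, and the floor of 3 reads for a count of 0, cover counting error only, since no molecular identifiers are named. Fits and the recovery of reads were tested on simulated data.

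Libraries of the same trial were treated as pairs only in the replicate block, and the main test left the trial out. Deviations of such libraries from their group's mean had correlations of 0.473, 0.218 and 0.434 in trials 1, 2 and 3. This likeness within trials comes from the data, not the labels. Blocked values are given where they change the call of a named gene or the counts of a pathway list.

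The 10 genes and the lists were chosen with earlier results of these data known. Named genes were the 10 members, all listed receptors, up to 4 risen and 4 fallen genes of each list by adjusted p, neighbours within 250 kb that were called or overlap a member, and the 5 genes closest to Cxcl10. Alternatives were other pseudocounts, filters, scalings, the block, limma-voom on recovered reads, and leaving out each library. Protein sequences were not used here.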

Additional observations from a re-analysis of the deposited data

How the results depend on the processing

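The calls of Cxcl1, Cxcl10 and Cxcl16 held under every alternative that gave a value. Leaving out any TWEAK library put Cxcl10 below the expression minimum, so no value was computed there. The log2 fold change of Cxcl5 passed with the replicate block (0.61), with limma-voom and the block (0.94) and without TWEAK replicate 1 (0.95). It was 0.29 to 0.95 without single libraries. That of Cxcl12 was -0.02 to 0.27 without single libraries and passed in none. Without single libraries the ratio of pooled reads was 3.77 to 7.34 for Cxcl9 and 52.3 to 87.3 for Cxcl10. For Cxcl11 it was 2.08 to 4.40 against the floor, and for Cxcl14 it was 0.428 to 1.06, on both sides of 1.

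Over all genes, limma called 1926, 1147 higher and 779 lower. With no filter these were 801, 499 and 302; with the replicate block 3563, 1965 and 1598; with limma-voom and the replicate block 4033, 2468 and 1565. Without single libraries they were 844 to 2101, 501 to 1266 and 343 to 835, the lowest of each without TWEAK replicate 2. The total was also more than 1.5 times lower without untreated replicate 1 (1099) or 2 (1104), and the number higher without untreated replicate 3 (741). Of the pathway lists, 18 genes were called higher and 2 lower. The number higher was 30 with limma-voom and the block and 11 to 18 without single libraries. The number lower was 6 with the block, 7 with limma-voom and the block, 4 with limma-voom without a filter and 2 to 4 without single libraries. The cause of these moves was not tested. The block changed no call among the named genes other than those of Cxcl5, Ackr3, Cxcl13, Art3, Sdc2 and Sdc4.

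Depth limits Cxcl9, Cxcl11 and Cxcl14, which rest on 46, 9 and 170 reads in all.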
